A study of Mus musculus with 12 samples.

Results

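Acute phase proteins are plasma proteins whose production rises in inflammation. Interleukins and tumour necrosis factor drive them through the C/EBP, STAT and NF-kB transcription factors, and most of the circulating protein is made by the liver. Fat, vessel wall and immune cells make some of them too, and Saa3 of the serum amyloid A family is known in the mouse as a form made mainly outside the liver. The 7 genes described here are Hp (haptoglobin, which binds free hemoglobin), Lcn2 (lipocalin 2, which binds bacterial siderophores that carry iron), Saa3, Serpina3n and Serpina3m (serine protease inhibitors), Itih4 (an inter-alpha-trypsin inhibitor heavy chain) and Orm1 (orosomucoid, an alpha-1-acid glycoprotein). They are 7 of the 32245 gene symbols in the count files. They were chosen by their measured levels in earlier results of these same libraries, so the differences between libraries given here describe the genes and test nothing.

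The aorta was sequenced as single cells in 1 gene expression library for each of 4 groups of male C57BL/6J mice that are given as ApoE-/-, a strain that lacks apolipoprotein E and develops plaques. The groups held 18 mice each, aged 8 weeks at the start, and each library pooled 6 aortas taken after 24 weeks. The group labelled Healthy had a normal diet and saline. The AS group, the atherosclerosis model, had a diet with 1% cholesterol and 10% fat and saline. On the same diet, the MTZ-treated group had saline for 12 weeks and then the carbonic anhydrase inhibitor methazolamide (MTZ) at 25 mg/kg for 12 weeks, and the MTZ-preventive group had MTZ for all 24 weeks. Saline and MTZ were given into the stomach every other day, and the sample labels write methoxazolamide for the drug. With 1 pooled library per group there was no replicate, so no p-value was computed. Each interval is a 95% counting interval, which leaves out the spread between mice and between libraries.

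Apoe itself stood at 687 counts per 1e6 UMIs (CPM) in the library labelled Healthy and at 8.59 to 13.1 CPM in the other 3 libraries. A UMI, or unique molecular identifier, marks 1 captured RNA molecule. The first value does not match the genotype on the label, and that library is therefore named by its label throughout. After the limits on cells, 2160 cells with 3795489 UMIs remained in AS, and 6796 to 14186 cells with 14990599 to 33985844 UMIs in the other libraries. A count of 0 over a whole library allows up to 0.79 CPM in AS and up to 0.0883 to 0.2 CPM elsewhere. Pairs of libraries shared 22 to 231 cell barcodes, at most 2.21% of the smaller library.

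Cells were sorted in the data by marker genes into the kinds compared here. A cell entered a gate with a UMI of at least 3 markers of that gate, or with at least 2 UMIs of Prg4 (lubricin) for the Prg4-positive gate, and was left out when it met another gate. The endothelial gate held 570, 272, 805 and 1118 cells in the library labelled Healthy, AS, MTZ-treated and MTZ-preventive. The fibroblast gate held 1225, 184, 1044 and 1914 cells, and the smooth muscle gate 1114, 283, 1492 and 2156. The adipocyte-marker gate held 228 cells in AS and 567 in MTZ-preventive but 7 and 14 in the library labelled Healthy and MTZ-treated, too few to compare. The Prg4-positive gate held 0, 21, 2 and 72 cells, since most cells with Prg4 also met the fibroblast gate. A wider Prg4 set, in which cells with 2 UMIs of Prg4 were kept also when they met the fibroblast gate, was added after the values were seen and held 4, 93, 134 and 474 cells. Cells that met more than 1 gate made up 36.2% of the cells of AS and 19.0% to 38.0% of the other libraries.

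The genes lie on different chromosomes, except the neighbours Serpina3m and Serpina3n. In the RefSeq annotation of GRCm38, the mm10 build used for counting, Saa3 spans chr7:46711998-46719615, Hp chr8:109575128-109579172, Lcn2 chr2:32384637-32387739, Orm1 chr4:63344556-63348163 and Itih4 chr14:30886476-30901986. Serpina3m at chr12:104387157-104394259 and Serpina3n at chr12:104406646-104414334 are separated by 12387 bases. They are related neighbours, and Saa3 and Orm1 also have close relatives, so reads shared between copies may have been split or lost in counting.

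Promoter sequence was at hand for 4 of the 7 genes and is shown because letters bound by the factors of the acute phase can be looked for in it. Each line gives the 250 bases before the transcription start in RefSeq's GRCm38.p6 record, read from 5′ to 3′ along the gene, with the matched letters in capitals. The windows are chr7:46715677-46715926 on the minus strand for Saa3, chr2:32387740-32387989 on the minus strand for Lcn2, chr12:104406458-104406707 on the plus strand for Serpina3n and chr14:30886226-30886475 on the plus strand for Itih4. The Saa3 and Serpina3n windows overlap the span of their gene records, which hold an earlier start.
Saa3: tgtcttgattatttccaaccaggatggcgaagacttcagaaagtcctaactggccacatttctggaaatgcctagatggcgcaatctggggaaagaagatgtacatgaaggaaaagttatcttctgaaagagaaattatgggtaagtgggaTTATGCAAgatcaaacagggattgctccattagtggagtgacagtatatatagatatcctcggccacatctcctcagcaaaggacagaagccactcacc
Lcn2: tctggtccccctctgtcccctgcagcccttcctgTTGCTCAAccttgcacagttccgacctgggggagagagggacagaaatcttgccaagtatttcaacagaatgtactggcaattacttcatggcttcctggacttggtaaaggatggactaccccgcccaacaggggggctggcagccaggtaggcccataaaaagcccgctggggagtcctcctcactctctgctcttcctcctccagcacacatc
Serpina3n: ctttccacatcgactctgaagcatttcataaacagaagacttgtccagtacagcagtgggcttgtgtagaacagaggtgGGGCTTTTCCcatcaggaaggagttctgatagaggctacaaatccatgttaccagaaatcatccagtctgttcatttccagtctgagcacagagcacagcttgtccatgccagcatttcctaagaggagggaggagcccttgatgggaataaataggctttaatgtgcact
Itih4: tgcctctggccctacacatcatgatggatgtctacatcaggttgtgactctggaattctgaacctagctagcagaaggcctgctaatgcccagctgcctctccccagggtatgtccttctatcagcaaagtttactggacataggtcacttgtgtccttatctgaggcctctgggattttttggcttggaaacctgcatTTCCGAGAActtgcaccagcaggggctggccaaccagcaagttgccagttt

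Each of the 4 windows held 1 match to the letters searched on both strands. The C/EBP letters TTGCNNAA were found in Saa3, 99 bases before the start on the opposite strand, and in Lcn2, 216 bases before it. The NF-kB letters (GGG, any 2 bases, TT, any base, CC) were found in Serpina3n, 171 bases before the start, and the STAT letters TTCNNNGAA in Itih4, 51 bases before it. A further string, CTGGGAA, was in none of the 4. Such letters are common, since 9.57%, 4.11% and 7.02% of 32841 mouse promoter windows held the C/EBP, NF-kB and STAT strings and 9.1% held CTGGGAA. A match describes the letters and shows no binding.

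Over all kept cells, each of the 7 genes was highest in the AS library. The Hp level was 2998 CPM in AS and 2649 CPM in MTZ-preventive, against 11.5 CPM in the library labelled Healthy and 71.7 CPM in MTZ-treated. Serpina3n had 615 and 605 CPM in the first pair and 13.3 and 93.6 CPM in the second. Both were thus nearly as high in MTZ-preventive as in AS, and low in the other pair of libraries. Saa3 had 0.201, 447, 17.3 and 63.3 CPM with the libraries in the order Healthy, AS, MTZ-treated and MTZ-preventive, and Lcn2 had 44.8, 1021, 166 and 203 CPM. Saa3 and Lcn2 differed from Hp in that MTZ-preventive stood well below AS. Serpina3m had 0.302, 100, 0.934 and 62.4 CPM. Orm1 had 0.871, 49.0, 2.4 and 8.53 CPM, and Itih4 had 11.6, 117, 31.6 and 76.4. The fat hormone gene Adipoq followed the same order of libraries, at 6.74, 284, 16.3 and 167 CPM, and whole libraries mix cells in different shares, so the levels were next read within gates. Alb (albumin), the most abundant hepatocyte transcript, was at 0 in the library labelled Healthy, AS and MTZ-preventive and at 0.0667 CPM in MTZ-treated. Of the other 6 liver genes looked at, 2 were at 0 in each library and 1 had at most 1 UMI in a library. The other 3 were seen in each, and the highest of them in every library was Ahsg (fetuin-A). It had 1.17, 9.75, 11.8 and 18.7 CPM in the library labelled Healthy, AS, MTZ-treated and MTZ-preventive, and its part in the other levels was not tested.

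**Figure D1:**
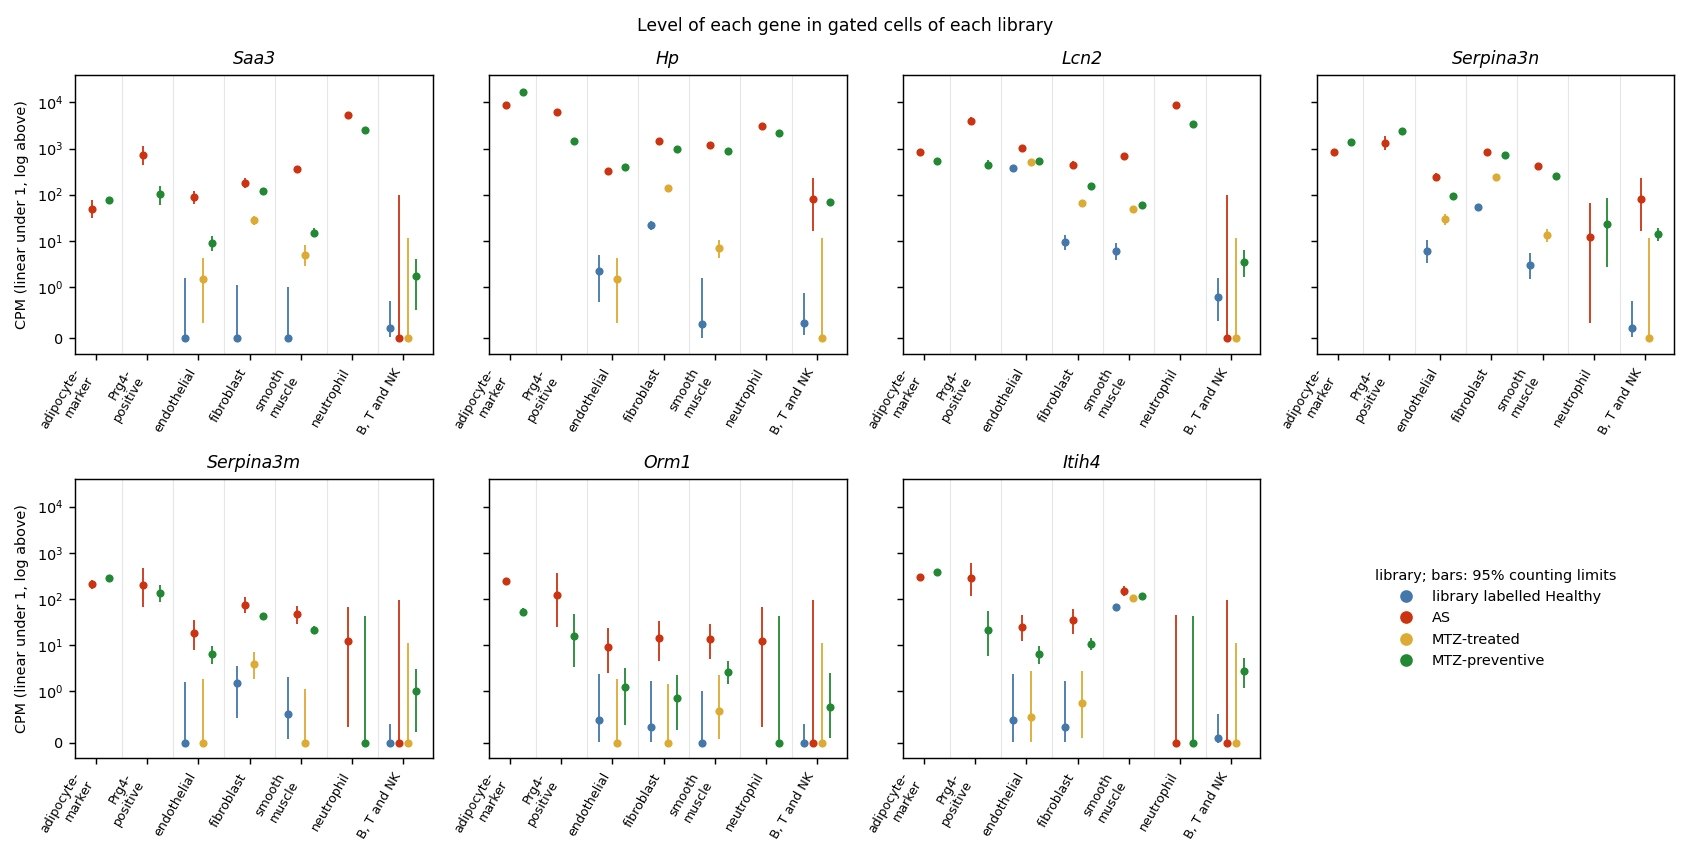
Level of each of the 7 genes (CPM, linear under 1 and logarithmic above) in the gated cells of each library, for gates of at least 20 cells, with 95% counting limits. Hp is highest in the adipocyte-marker gate, at 8908 CPM in AS and 17051 CPM in MTZ-preventive, while Lcn2 and Saa3 are highest in neutrophils.

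Hp was foremost a gene of the adipocyte-marker cells. It had 8908 CPM (8631 to 9191) in those of AS and 17051 CPM (16884 to 17219) in those of MTZ-preventive, and the 7 and 14 such cells of the library labelled Healthy and MTZ-treated held 3041 and 8842 CPM. After each cell was thinned to 1000 UMIs, 97.4% of the adipocyte-marker cells of AS and 95.9% of those of MTZ-preventive had a UMI of Hp. The single cells were spread widely, with a median of 73.6 Hp UMIs per 10000 in AS (10th to 90th percentile 18 to 146) and 103 in MTZ-preventive (17.7 to 271). These cells were 10.6% of the cells of AS and held 34.5% of its Hp UMIs, and they were 4% of the cells of MTZ-preventive and held 44.3%. Brown fat genes (Ucp1, Cidea, Cox8b and Elovl3) summed to 664 CPM in the adipocyte-marker cells of AS and 146 CPM in those of MTZ-preventive, with none of the 4 at 0 in either. The adipocyte-marker cells of the pair thus differed in these genes, and the part of this in the Hp levels was not tested.

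In the endothelial, fibroblast and smooth muscle gates Hp was low in the library labelled Healthy and MTZ-treated and high in AS and MTZ-preventive. The smooth muscle gate had 0.276, 1195, 6.89 and 899 CPM in the library labelled Healthy, AS, MTZ-treated and MTZ-preventive. The fibroblast gate had 21.6, 1436, 142 and 982 CPM, and the endothelial gate 2.17, 325, 1.49 and 395 CPM. Barcodes at or under 1000 UMIs, which were not kept as cells, had 27.0, 2090, 75.0 and 1421 CPM of Hp in the same order. Those of AS had 355 CPM of Saa3, 853 of Lcn2 and 524 of Serpina3n. The part of RNA found in such barcodes in the gate levels was not tested. In lymphocytes, which are not known to make haptoglobin, Hp had 70.5 CPM (61.2 to 80.9) in the 1268 B, T and NK cells of MTZ-preventive and 0.301 CPM in the 3888 of the library labelled Healthy. The smooth muscle, fibroblast and endothelial levels of MTZ-preventive all lay above the lymphocyte level of the same library. Per UMI of Adipoq, Hp had 20.6 UMIs (11.0 to 43.6) in the lymphocytes of MTZ-preventive and 23.1 (17.6 to 31.0) in its endothelial gate. Its smooth muscle gate had 28.3 (24.2 to 33.2) and its fibroblast gate 41.5 (34.3 to 50.7). These all lay within the interval of the lymphocytes, which held 10 UMIs of Adipoq. In the adipocyte-marker gate of the same library Hp had 14.1 UMIs (13.6 to 14.6) per UMI of Adipoq. This lay within the lymphocyte interval and below those of the endothelial, smooth muscle and fibroblast gates. In AS the adipocyte-marker gate had 6.98 (6.39 to 7.64). Intervals in AS were 8.2 to 35.7 in the endothelial gate, 16.4 to 41.3 in smooth muscle and 34.5 to 179 in fibroblasts. All lay above the adipocyte-marker value, on 7 to 21 Adipoq UMIs per gate. The part of fat RNA in the Hp levels was not tested. The thinned share of cells with an Hp UMI in MTZ-preventive was 8.12% of lymphocytes against 36.5% of smooth muscle cells, with a median depth of 1688 UMIs in B cells, 2412 in T and NK cells and 1457 in smooth muscle cells. AS had only 20 lymphocytes, at 78.7 CPM (16.2 to 230). Neutrophils, which store haptoglobin in their granules, had 3029 CPM in AS and 2120 CPM in MTZ-preventive, and 2052 CPM (1479 to 2774) in the 8 neutrophils of the library labelled Healthy, so their Hp was not low there.

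The Hp level also differed with the number of markers of its own gate that a cell showed. In the smooth muscle gate of AS it had 2081 CPM in cells with 3 smooth muscle markers, 1687 with 4, 1346 with 5 and 469 with 6 or more, and in MTZ-preventive 1911, 2297, 1488 and 380. In the endothelial gate it had 383, 528, 146 and 91.2 CPM in AS and 1100, 787, 298 and 96.6 in MTZ-preventive. The fibroblast gate of AS went from 2431 CPM at 3 markers to 106 CPM at 6 or more. In each of these gates of AS the cells with the most own markers thus held the least Hp. In the adipocyte-marker gate of AS Hp instead went from 6484 CPM at 3 markers to 9935 CPM at 5, while that of MTZ-preventive had 14604, 16613 and 19403 CPM at 3, 4 and 5 markers and 16111 CPM at 6 or more. Cells with more markers were also deeper, from a median of 1116 UMIs at 3 to 1821 at 6 or more in the smooth muscle gate of AS. In its fibroblast gate the median went from 1119 to 3913 UMIs.

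**Figure D2:**
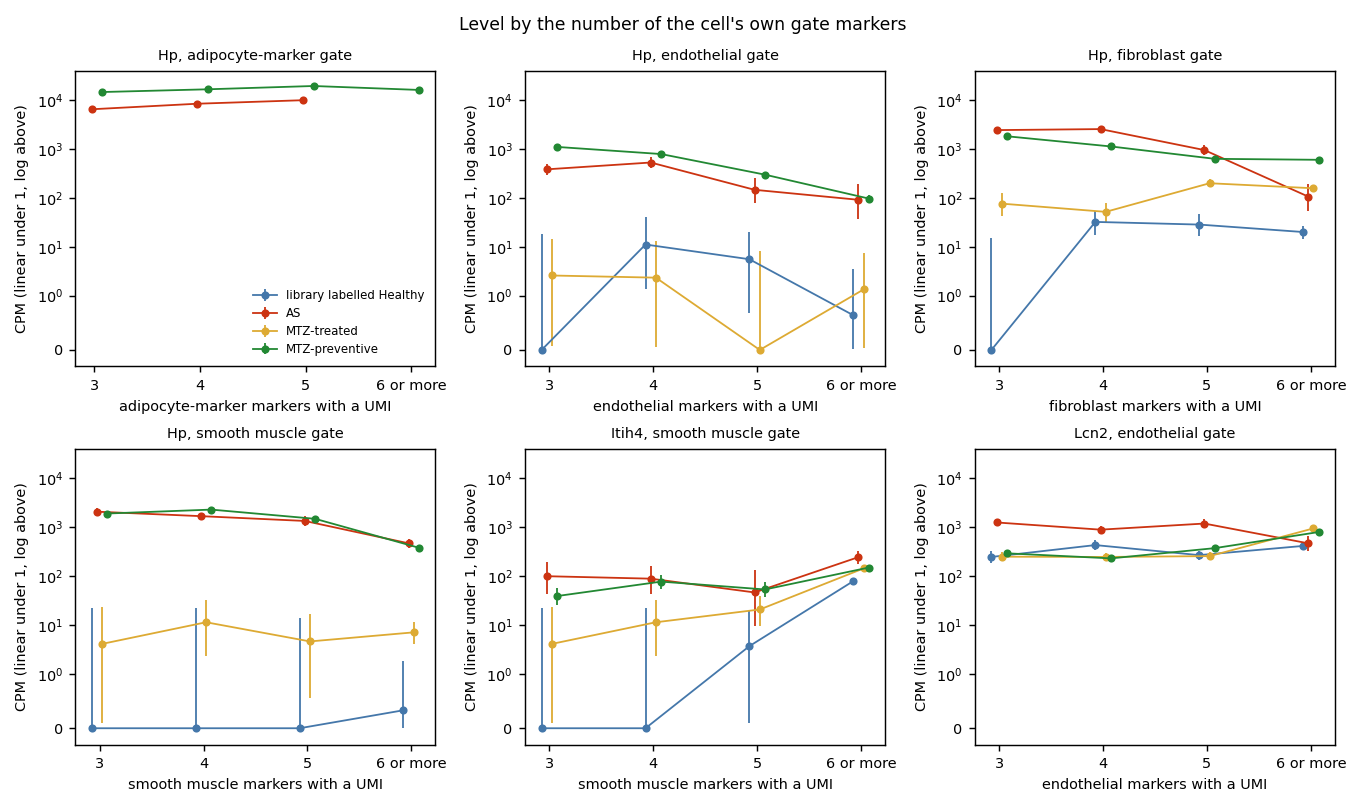
Level (CPM, linear under 1 and logarithmic above, 95% counting limits) against the number of the gate's own markers with a UMI in the cell, for bins of at least 20 cells. Hp is lower in endothelial and smooth muscle cells with 6 or more markers than in those with 3 in AS and MTZ-preventive, and Itih4 is higher in smooth muscle cells with 6 or more markers than in those with 5 in all 4 libraries.

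A stricter reading kept only cells without a UMI of any neutrophil, adipocyte or Prg4 marker, a limit set after the values were seen. It left 64 of the 283 smooth muscle cells of AS, 71 of the 184 fibroblasts and 118 of the 272 endothelial cells. Smooth muscle Hp in AS was then 55.7 CPM in place of 1195, against 251 CPM in the 1066 such cells of MTZ-preventive, a ratio of 0.222 (0.0888 to 0.459). Fibroblast Hp in AS was 1239 CPM in place of 1436, and 92.1-fold (65.3 to 133) that of the library labelled Healthy. Endothelial Hp was 78.0 CPM in AS and 106 CPM in MTZ-preventive. Among these cells of AS, Hp was therefore lower in the smooth muscle and endothelial gates than in the fibroblast gate. Such cells of the smooth muscle and endothelial gates had 0 and 0.957 CPM in the library labelled Healthy and 7.89 and 1.62 CPM in MTZ-treated. The smooth muscle ratio of AS to MTZ-treated was 7.06 (2.52 to 17.4), on 7 UMIs in AS. Adipocyte markers summed to 580 CPM in the smooth muscle gate of AS, 275 in its fibroblast gate and 255 in its endothelial gate, with none of the 6 at 0, against 10098 CPM in the adipocyte-marker gate. In MTZ-preventive they summed to 292, 171 and 152 CPM in the smooth muscle, fibroblast and endothelial gates, against 7124 CPM.

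Lcn2 was highest in neutrophils and was present in the endothelial gate of every library. The 32 neutrophils of AS held 8918 CPM (8287 to 9583) and the 43 of MTZ-preventive 3370 CPM (2995 to 3778). The 8 neutrophils of the library labelled Healthy, too few to compare, held 8111 CPM (6924 to 9444). Lipocalin 2 is a known protein of neutrophil granules. The endothelial gate of AS had 1005 CPM, against 379 in the library labelled Healthy, 510 in MTZ-treated and 545 in MTZ-preventive. Lcn2 was the single member with a level of over 100 CPM in the endothelial gate of all 4 libraries. Of all Lcn2 UMIs, that gate held 65.5% in the library labelled Healthy, 41.3% in MTZ-treated and 25% in MTZ-preventive, but 11.5% in AS. In AS neutrophils held 19.2% and cells that met more than 1 gate held 35.3%.

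Within the endothelial gate, Lcn2 went with markers of lymphatic endothelium. A list of 7 such genes (Prox1, Lyve1, Mmrn1, Flt4, Ccl21a, Pdpn and Reln) was drawn up after the values were seen. In the library labelled Healthy, the 121 endothelial-gate cells with at least 2 of them had 1158 CPM of Lcn2 and the cells with none had 18 CPM, a ratio of 64.4 (43.0 to 101). The levels with at least 2 and with none were 4453 and 391 CPM in AS (ratio 11.4, 9.18 to 14.1), 1904 and 38.8 CPM in MTZ-treated (49.0, 37.0 to 66.2) and 2332 and 73.8 CPM in MTZ-preventive (31.6, 26.8 to 37.5). Lcn2 was thus higher in the cells with lymphatic markers in every library. These cells were 21.2%, 7.72%, 11.7% and 10.0% of the gate and held 95.4%, 49.9%, 85.0% and 77.0% of its Lcn2 UMIs in the library labelled Healthy, AS, MTZ-treated and MTZ-preventive. In thinned cells, a UMI of Lcn2 was seen in 62.8%, 95.2%, 59.6% and 71.4% of the cells with at least 2 lymphatic markers and in 1.51%, 18.7%, 2.09% and 6.07% of those with none.

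The AS library had more Lcn2 on both sides of that split. Among cells with at least 2 lymphatic markers, AS was 3.84-fold the library labelled Healthy (3.3 to 4.46), 2.34-fold MTZ-treated and 1.91-fold MTZ-preventive. Among cells with none the ratios were 21.7 (14.0 to 35.1), 10.1 and 5.3. The ratio of the whole gate, 2.65 (2.36 to 2.98) over the library labelled Healthy, lay below both. The share of cells with lymphatic markers was lower in AS. Endothelial cells with 6 or more endothelial markers were not split by lymphatic markers, so their ratio does not bear on either side. They had 469 CPM in AS, in 36 cells, and 415 CPM in the library labelled Healthy, at a ratio of 1.13 (0.784 to 1.58). Hp was instead lower in cells with at least 2 lymphatic markers than in cells with none in AS and MTZ-preventive. The ratio was 0.224 (0.0601 to 0.587) in AS, on 4 UMIs in the cells with at least 2, and 0.177 (0.128 to 0.239) in MTZ-preventive. Cells with 1 lymphatic marker had 332 CPM of Hp in AS and 595 CPM in MTZ-preventive, against 358 and 438 CPM in cells with none. Genes of lymph node stroma, of which Ccl21a is also on the lymphatic list, summed to 2918 CPM in the endothelial gate of the library labelled Healthy and to 36.1, 663 and 699 CPM in AS, MTZ-treated and MTZ-preventive.

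**Figure D3:**
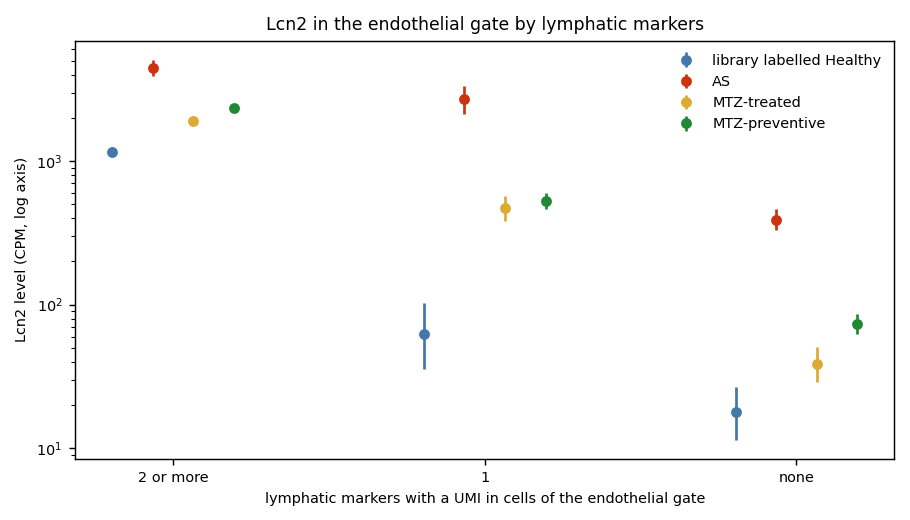
Lcn2 level (CPM, logarithmic axis, 95% counting limits) in endothelial-gate cells with at least 2, 1 or none of 7 lymphatic markers, in each library. In every library the cells with at least 2 markers lie above the cells with none, at 1158 against 18 CPM in the library labelled Healthy and 4453 against 391 CPM in AS.

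Outside the endothelium Lcn2 followed the AS library. The smooth muscle gate had 6.08, 703, 48.2 and 58.4 CPM and the fibroblast gate 9.3, 450, 65.7 and 158 CPM in the library labelled Healthy, AS, MTZ-treated and MTZ-preventive. The adipocyte-marker gate had 861 CPM in AS and 528 CPM in MTZ-preventive, and the Prg4-positive gate 3945 and 448 CPM. Genes of neutrophil granules (S100a8, S100a9, Ngp, Ltf and Camp) moved with these values. They summed to 4715 CPM in the smooth muscle gate of AS and to 2.76 to 58.8 CPM in the other libraries, to 1362 CPM in the fibroblast gate of AS against 5.1 to 51.2 CPM, and to 937 CPM in the endothelial gate of AS against 3.46 to 16.8 CPM. None of the 5 genes was at 0 in the smooth muscle gate of AS, 1 was at 0 in its fibroblast gate and 2 were at 0 in its endothelial gate. In the neutrophils of AS themselves the sum was 165216 CPM. In smooth muscle cells without neutrophil, adipocyte or Prg4 markers Lcn2 was 103 CPM in AS, on 13 UMIs, and 56.0 CPM in MTZ-treated. That ratio was 1.85 (0.959 to 3.26) in place of 14.6. Such cells of AS were 9.81-fold (4.49 to 20.7) the library labelled Healthy and 3.14-fold (1.61 to 5.65) MTZ-preventive. Fibroblasts of AS without these markers had 291 CPM, at ratios of 30.6, 4.4 and 2.21 to the library labelled Healthy, MTZ-treated and MTZ-preventive. Endothelial Lcn2 in AS was 1252 CPM in such cells, above the 1005 CPM of the whole gate.

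Saa3 was nearly absent from the library labelled Healthy, with 0 UMIs in its endothelial, fibroblast and smooth muscle gates. At these depths 0 allows up to 1.3, 0.9 and 0.829 CPM. The endothelial gate had 88.1, 1.49 and 8.86 CPM in AS, MTZ-treated and MTZ-preventive, and the smooth muscle gate 359, 5.01 and 15.1 CPM. The fibroblast gate had 183, 27.9 and 123 CPM, so that MTZ-preventive lay nearer to AS there. The adipocyte-marker gate had 49.9 CPM in AS and 76.5 CPM in MTZ-preventive. Its 14 cells of MTZ-treated, too few to compare, held 898 CPM (587 to 1316). The highest Saa3 was in neutrophils, at 5300 CPM (4817 to 5819) in AS and 2487 CPM (2167 to 2841) in MTZ-preventive. These 32 cells of AS held 26.0% of all its Saa3 UMIs, and cells of AS that met more than 1 gate held 53.2%. In cells without neutrophil, adipocyte or Prg4 markers, Saa3 in AS was 23.9 CPM in smooth muscle (3 UMIs), 9.75 CPM in endothelium (2 UMIs) and 81.2 CPM in fibroblasts (12 UMIs).

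In some gates a single cell carried most of the Saa3. In the wider Prg4 set of AS, 1 cell held 285 of the 351 Saa3 UMIs, and the level was 1413 CPM with it and 279 CPM without it. Without the top cell of each library the ratio of AS to MTZ-preventive was 1.3 (0.984 to 1.69) in place of 5.35. In the Prg4-positive gate of MTZ-preventive 1 cell held 17 of 19 UMIs, and in its macrophage gate 1 of 40 cells held 60 of the 61 UMIs. The neutrophils were less uneven, with 125 of 441 UMIs in 1 cell of AS, and 3956 CPM without it.

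Serpina3n was highest in cells with Prg4, followed by adipocyte-marker cells and fibroblasts. The fibroblast gate had 52.8, 851, 243 and 721 CPM in the library labelled Healthy, AS, MTZ-treated and MTZ-preventive, the highest of the endothelial, fibroblast and smooth muscle gates in each library. The endothelial gate had 6.06, 242, 29.3 and 93.4 CPM and the smooth muscle gate 3.04, 416, 13.1 and 256 CPM. The wider Prg4 set had 2712 CPM in MTZ-preventive, against 1437 CPM in AS and 323 CPM in MTZ-treated, so that AS lay below MTZ-preventive here, at a ratio of 0.53 (0.474 to 0.59). Genes of mesothelium summed to 4.03 CPM in that set of AS, with 7 of 8 genes at 0, and to 219 CPM in MTZ-treated and 280 CPM in MTZ-preventive, and their part in the result was not tested. The adipocyte-marker gate had 852 CPM in AS, level with its fibroblasts, and 1388 CPM in MTZ-preventive, above its fibroblasts. Neutrophils held 12 CPM in AS and 22.9 CPM in MTZ-preventive, below every stromal gate of the same library. In fibroblasts without neutrophil, adipocyte or Prg4 markers Serpina3n was 1124 CPM in AS, 21.3-fold (17.0 to 26.6) the library labelled Healthy, and 5.83-fold (4.84 to 7.01) MTZ-treated.

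Serpina3m, its neighbour on the chromosome, was present mainly in AS and MTZ-preventive. The adipocyte-marker gate had 206 and 282 CPM in those libraries, the fibroblast gate 74.5 and 43.0 CPM, the smooth muscle gate 47.2 and 21.6 CPM and the endothelial gate 18.1 and 6.33 CPM. The library labelled Healthy and MTZ-treated had at most 3.82 CPM in these last 3 gates. Serpina3m stood below Serpina3n in each of them, although levels of different genes also depend on how well each is captured.

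Itih4 was found in the smooth muscle gate of every library, though a UMI was seen in few of its cells. After thinning, the share was 3.59%, 9.54%, 5.63% and 7.7% in the library labelled Healthy, AS, MTZ-treated and MTZ-preventive. The smooth muscle gate had 66.3 CPM (58.2 to 75.2) in the library labelled Healthy, 150 CPM (117 to 191) in AS, 105 CPM (94.5 to 117) in MTZ-treated and 117 CPM (108 to 127) in MTZ-preventive. The endothelial and fibroblast gates of the library labelled Healthy and MTZ-treated had at most 0.764 CPM. The smooth muscle gate held 69.6% of the Itih4 UMIs of the library labelled Healthy and 71.1% of those of MTZ-treated. Unlike Hp, Itih4 was highest in the cells with the most smooth muscle markers, at 0, 0, 3.7 and 79.1 CPM with 3, 4, 5 and 6 or more markers in the library labelled Healthy and 4.12, 11.4, 20.8 and 144 CPM in MTZ-treated. The adipocyte-marker gate had higher levels than smooth muscle in AS and MTZ-preventive, at 299 and 382 CPM. It held 29.8% and 34.5% of the Itih4 UMIs of these libraries, against 15.1% and 23.5% in the smooth muscle gate.

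Orm1 was highest in the adipocyte-marker gate. That gate had 240 CPM (197 to 291) in AS and 53.4 CPM (44.4 to 63.6) in MTZ-preventive, a ratio of 4.5. It held 57.0% and 43.1% of the Orm1 UMIs of these libraries. Its 7 cells in the library labelled Healthy held 372 CPM (186 to 665) and its 14 in MTZ-treated 173 CPM (56.1 to 403). Both were too few to compare. In the endothelial, fibroblast and smooth muscle gates Orm1 had at most 14.3 CPM in AS and 2.68 CPM elsewhere.

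**Figure D4:**
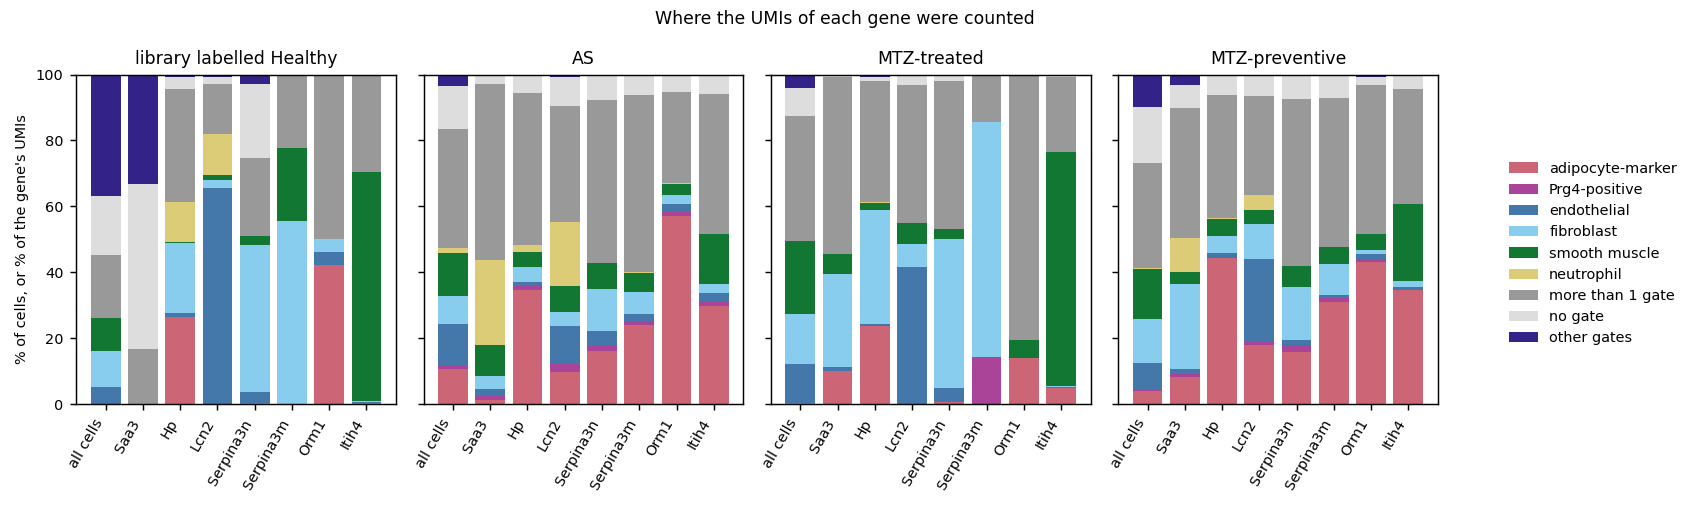
Share of cells and of each gene's UMIs (%) by gate in each library, where the first bar of each panel is all kept cells. Lcn2 comes mainly from the endothelial gate in the library labelled Healthy (65.5%), Itih4 from smooth muscle (69.6%), and Hp in AS and MTZ-preventive from adipocyte-marker cells (34.5% and 44.3%) and cells that met more than 1 gate (46.0% and 37.3%).

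The comparison of AS with the other libraries was read within the endothelial, fibroblast and smooth muscle gates, which gives 21 pairs of a gene and a gate. A pair was counted as higher in AS at a ratio of at least 2 with a lower counting limit above 1, if both libraries together had at least 20 UMIs. Against the library labelled Healthy, 15 pairs had enough UMIs and all 15 were higher in AS, where 4.32% of all gene and gate pairs were. The 6 pairs without enough UMIs were Serpina3m in the endothelial gate, Itih4 in the endothelial and fibroblast gates and Orm1 in all 3 gates. Several pairs, Saa3 in every gate among them, had enough UMIs only because of AS, and the genes were chosen on this contrast, so nothing is read from the count itself. Of the single ratios, Hp in smooth muscle was 4325 (773 to 171155) on 1 UMI in the library labelled Healthy, Lcn2 in smooth muscle was 116, and Itih4 in smooth muscle was 2.27 (1.7 to 2.99). Saa3 had ratios of 67.8, 204 and 434 in the endothelial, fibroblast and smooth muscle gates, with 3 UMIs set for the count of 0. These ratios leave out the counting error of AS.

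Against MTZ-treated, 13 of 15 pairs were higher in AS, where 5.36% of all pairs were. Here too some pairs had enough UMIs only because of AS, such as Saa3 and Hp in the endothelial gate. Those pairs had 3 UMIs each in MTZ-treated. The exceptions to the 13 were Lcn2 in the endothelial gate, with a ratio of 1.97 (1.76 to 2.21), and Itih4 in smooth muscle, with 1.43. Without the top cell of each library the Lcn2 ratio was 2.09 and passed the limit. Among the others, Serpina3n had ratios of 8.25, 3.51 and 31.6 and Hp of 218, 10.1 and 174 in the endothelial, fibroblast and smooth muscle gates. Both genes were thus nearest to AS in the fibroblasts of MTZ-treated.

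Against MTZ-preventive, 10 of 19 pairs were higher in AS, where 2.99% of all pairs were, and none was lower. They were Saa3, Serpina3n, Serpina3m and Itih4 in the endothelial gate, Lcn2 and Itih4 in the fibroblast gate, and Saa3, Lcn2, Serpina3m and Orm1 in the smooth muscle gate. Saa3 in smooth muscle, with a ratio of 23.8 (18 to 31.5), and Lcn2 in smooth muscle, with 12 (10.3 to 14.1), had the highest ratios of the 19 pairs. Hp was not among them, with ratios of 0.823 (0.687 to 0.978), 1.46 (1.33 to 1.6) and 1.33 in the endothelial, fibroblast and smooth muscle gates. The ratio of Serpina3m in the endothelial gate, 2.85 on 8 UMIs in AS, was 2.78 (0.982 to 6.98) without the top cells. The 3 comparisons share the AS library, so that whatever is particular to that library stands in all of them. Since the genes were chosen on these libraries, nothing is read from the 3 counts themselves.

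With 6 or more markers of the own gate, 7 of 8, 6 of 11 and 5 of 14 pairs were higher in AS than in the library labelled Healthy, MTZ-treated and MTZ-preventive, where 3.58%, 4.97% and 3.29% of all pairs were. AS then had 36 endothelial cells, 22 fibroblasts and 79 smooth muscle cells. The 1 pair of the 8 that was not higher than in the library labelled Healthy was endothelial Lcn2, at 1.13. Saa3, Lcn2 and Serpina3n in smooth muscle were above MTZ-preventive by the same rule in these cells, at ratios of 16.4, 8.8 and 2.43. The other pairs above it were Serpina3m in smooth muscle and Lcn2 in fibroblasts. Their ratios were 3.8 (1.13 to 10.1), on 5 UMIs in AS, and 2.12 (1.31 to 3.3). Fibroblast Hp was lower in AS than in MTZ-preventive, at 0.176 (0.0877 to 0.317), and had a ratio of 0.673 (0.331 to 1.23) to MTZ-treated, and endothelial Lcn2 was lower in AS than in MTZ-treated, at 0.495 (0.344 to 0.692). In cells without neutrophil, adipocyte or Prg4 markers, 8 of 9, 9 of 11 and 6 of 13 pairs were higher in AS, where 3.23%, 3.64% and 2.8% of all pairs were. Nothing is read from these counts or from those at 6 or more markers. The pair that was not higher than in the library labelled Healthy was Itih4 in smooth muscle, at 55.7 against 51.7 CPM. Smooth muscle Hp was lower in AS than in MTZ-preventive in these cells, at 0.222 (0.0888 to 0.459). Fibroblast Hp was instead higher in AS than in MTZ-preventive in them, at 2.72 (2.31 to 3.17). Serpina3m, higher in AS than in MTZ-preventive over the whole smooth muscle gate, had a ratio of 0.913 (0.0222 to 5.62) on 1 UMI in AS. Smooth muscle Serpina3n had a ratio to MTZ-preventive of 0.647 (0.32 to 1.17) in these cells and of 1.62 over the whole gate. How far RNA of neutrophils and fat set the ratios of the main gates was not tested beyond these values.

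**Figure D5:**
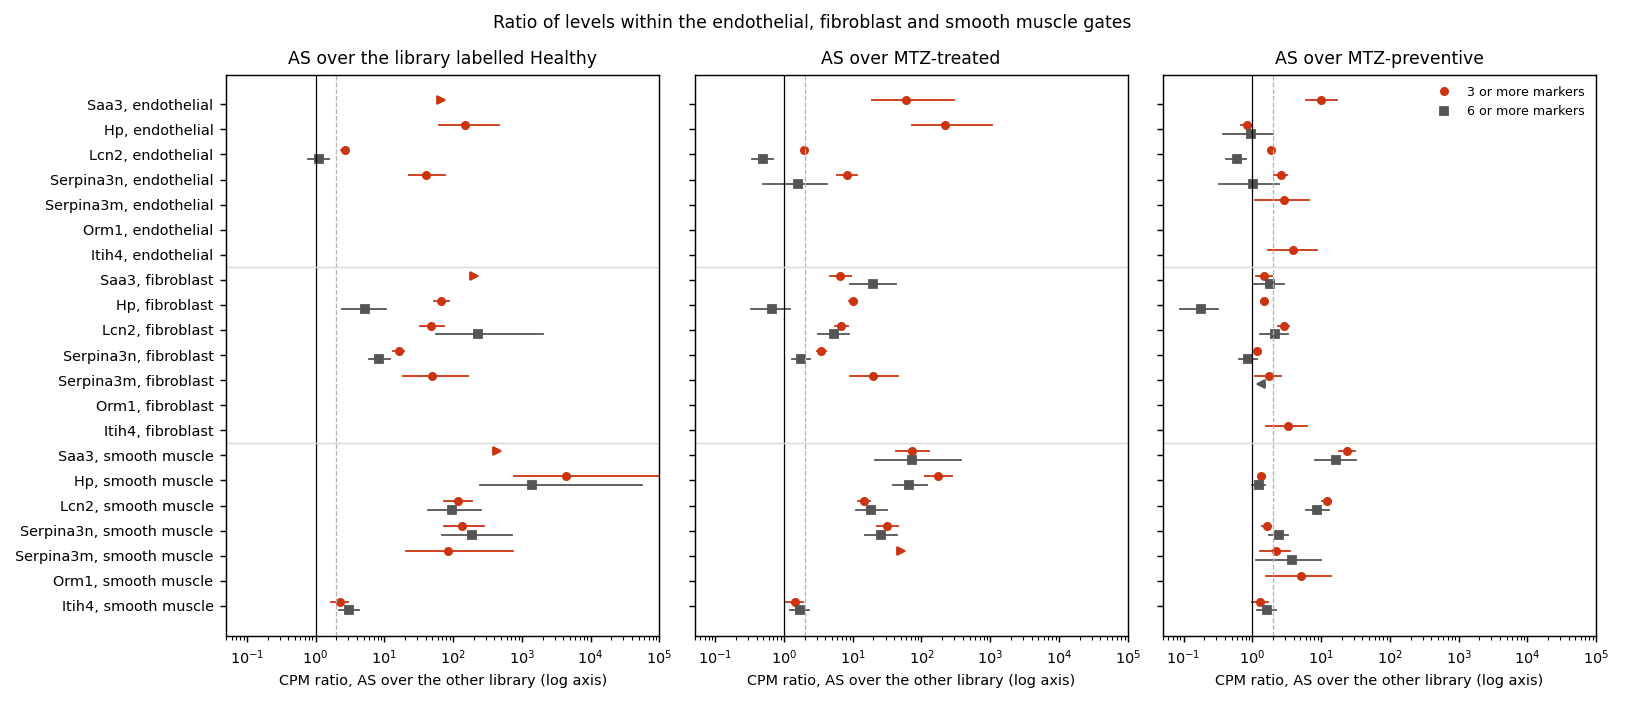
Ratio of CPM in AS to each other library (logarithmic axis) for each gene in the endothelial, fibroblast and smooth muscle gates, with 95% counting limits. Circles are cells with 3 or more markers, squares cells with 6 or more, and arrowheads limits where 1 library had a count of 0, pointing to the side on which the ratio lies; Hp lies near 1 against MTZ-preventive at 3 or more markers (0.823 to 1.46), while Saa3 and Lcn2 in smooth muscle lie at 23.8 and 12.

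In the adipocyte-marker gate, AS could be compared with MTZ-preventive alone. Orm1 was the 1 of 7 genes that was higher in AS, where 4.96% of all genes were, and none of the 7 was lower by the same rule, where 4.29% of all genes were. Hp had a ratio of 0.522, Serpina3n of 0.614, Serpina3m of 0.732 and Saa3 of 0.652, all on the side of MTZ-preventive but within 2-fold. Hp lay close to that limit and was past it, at 0.488 (0.471 to 0.505), without the top cell of each library, and with totals scaled by the trimmed mean of M-values (TMM), at a log2 ratio of -1.04. With at least 2 adipocyte markers both Hp and Saa3 were lower, at log2 ratios of -1.14 and -1.59. In the Prg4-positive gate 3 of 5 genes with enough UMIs were higher in AS, where 4.57% of all genes were. These were Lcn2, at 8.81 (6.51 to 11.9), Saa3, at 7.23 (54.3 without the top cell of each library), and Hp, at 4.19 (3.41 to 5.13). With each cell placed in the gate of which it showed the most markers, the log2 ratio of Hp was -0.76, on the side of MTZ-preventive. Serpina3n had a ratio of 0.567, and with TMM factors it was lower in AS, at a log2 ratio of -1.36. That gate held 21 cells in AS, in which the neutrophil granule genes summed to 5937 CPM and the adipocyte markers to 732 CPM, against 37.3 and 192 CPM in MTZ-preventive, and their part in the result was not tested. Genes of mesothelium summed to 0 in those cells of AS, with 8 of 8 genes at 0, and to 1632 CPM in MTZ-preventive, so the gate differed in its other markers between the pair of libraries. In the wider Prg4 set, 5 of 5 genes were higher in AS than in MTZ-treated, where 5.81% of all genes were, and 3 of 6 were higher than in MTZ-preventive, where 2.75% were. Those 3 were Saa3, Lcn2 and Itih4, and Saa3 was not among them without its top cells. Serpina3m had enough UMIs against MTZ-treated only because of AS, with 59 against 3 UMIs, and nothing is read from these counts.

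A list of 34 acute phase genes that leaves out the 7 was read first in the endothelial, fibroblast and smooth muscle gates. In smooth muscle 12 of them had enough UMIs against the library labelled Healthy, of which 8 were higher in AS and none lower, where 5.64% of all genes were higher. The median log2 ratio of the 12 was 2.50, against 6.97 for the 6 members with enough UMIs and -0.15 for all genes. The members were chosen on this contrast, and some had enough UMIs only because of AS, so nothing is read from their higher median. This list and those read below were also drawn up with earlier results of these data known. A listed gene can likewise have enough UMIs only because of AS, so nothing is read from the counts or medians of the lists. Mt1 and Mt2 (metallothioneins, which bind zinc) had 10171 and 1271 CPM in the smooth muscle gate of AS and 924 and 140 CPM in that of the library labelled Healthy. Lrg1 (leucine-rich alpha-2-glycoprotein) had 501 against 33.2 CPM, a ratio of 15.1 (12 to 19.0). Mt1 was 11.4-fold higher in the endothelial gate and 5.89-fold higher in the fibroblast gate, so the metallothioneins were higher in AS in all 3 gates, as Hp was. In the fibroblast gate 5 of 12 genes were higher in AS than in the library labelled Healthy and 1 was lower, where 4.02% and 4.86% of all genes were. The lower gene was the coagulation starter F3 (tissue factor), at 45.9 CPM in the fibroblasts of AS and 217 CPM in those of the library labelled Healthy. In the endothelial gate 6 of 11 were higher and 1 was lower, where 3.2% and 6.99% of all genes were. Against MTZ-preventive, 5 of 16 genes were higher in AS in smooth muscle, 4 of 13 in the endothelial gate and 1 of 15 in the fibroblast gate, where 3.42%, 2.37% and 3.09% of all genes were. In the endothelial gate 2 of the 13 were lower, where 4.34% of all genes were, Cp (ceruloplasmin), at 74.5 against 191 CPM, and Hamp (hepcidin, the iron hormone), with 0 UMIs in AS against 22.8 CPM. In the adipocyte-marker gate, Lrg1 had 1374 CPM in AS and 3515 in MTZ-preventive, and Hamp had 0 UMIs in AS, where a count of 0 allows up to 6.8 CPM, and 292 CPM in MTZ-preventive.

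Of 20 inducers, receptors and signal genes of the response, most of those with enough UMIs in the endothelial, fibroblast and smooth muscle gates were past 2-fold in neither direction. In smooth muscle 6 of 15 were higher in AS than in the library labelled Healthy, where 5.64% of all genes were. None was lower, where 7.33% of all genes were. Among the 6, Cebpd (C/EBP delta) had 573 against 199 CPM, a ratio of 2.88 (2.49 to 3.33). Against MTZ-preventive, 2 of 16 were higher in smooth muscle, where 3.42% of all genes were, and 1 of 16 in the fibroblast gate, where 3.09% were. There 4 of the 16 were lower, where 2.85% of all genes were. Among those 4, Socs3, the feedback inhibitor of STAT signalling, had 424 CPM in AS and 912 in MTZ-preventive, and Tsc22d3, a glucocorticoid target, had 149 and 319 CPM. In the endothelial gate Il6st, the shared receptor chain of the interleukin 6 family, had 185 and 384 CPM. In the wider Prg4 set 7 of 12 were higher in AS than in MTZ-treated, where 5.81% of all genes were, with Cebpd at 1256 and 502 CPM, and the median log2 ratio was 1.20. In the Prg4-positive gate none of 8 was higher and 4 were lower in AS than in MTZ-preventive, where 8.16% of all genes were lower, with Cebpd at 447 and 1093 CPM. Of 9 receptors and partners of the proteins, Cd36, a scavenger receptor, had 1856 CPM in the endothelial gate of AS, 706 in that of the library labelled Healthy, 391 in that of MTZ-treated and 1067 in that of MTZ-preventive. Against MTZ-preventive none of the 5 genes of that list with enough UMIs was past 2-fold there, with a median log2 ratio of -0.12, and Cd36 had a ratio of 1.74 (1.61 to 1.88).

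Levels over 16 combinations of a gate and a library with at least 20 cells were used to find the genes most like each member. These came from the adipocyte-marker, Prg4-positive, endothelial, fibroblast and smooth muscle gates, so neutrophils and the other gates were not among them. For Hp the nearest were Cfd (adipsin), with a Pearson r of 0.975, Mt1, with 0.956, and Mt2, with 0.941. For Serpina3n they were Mt2 (0.971), Mt1 (0.943) and C4b (0.918), and for Saa3 Ifitm1 (0.883), Lgals3 (0.869) and Mt2 (0.843). Lcn2 had Riok3 (0.915), Orm1 had Fgl1 (0.956) and Serpina3m had Mt1 (0.955) as the nearest gene. Between members, Hp was close to Serpina3m (0.939) and Serpina3n (0.929), and Lcn2 and Itih4 were not close to each other (0.303). The 16 points share 4 libraries and their depths, so these values describe the pattern and carry no test.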

How the data were processed

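Aortic cells of 4 groups of ApoE-/- mice were captured with a 10x Genomics 5′ kit, with 6 aortas pooled per library. The authors aligned reads to mm10 with STAR in Cell Ranger 5.0.0 and deposited raw counts of UMIs per gene and barcode for 32285 features. Per the submitters' processing notes and file headers, no further normalization was made. Receptor libraries were not used here. Counts of the 38 symbols found on several lines were summed.

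Barcodes were kept with over 200 genes, over 1000 UMIs, a complexity (log genes over log UMIs) over 0.7, under 10% mitochondrial and under 5% red blood cell UMIs. Doublets were scored against 2 simulated ones per cell, a Scrublet-like method, and the highest-scoring 0.8% per 1000 cells were left out. Cells were gated by markers. The counts of each gate in each library were added up and scaled to 1e6 (CPM), with exact Poisson 95% limits. Ratios had exact conditional binomial limits. A count of 0 was set to a floor of 3 UMIs over the gate for a ratio. Such a ratio is a lower bound if the other library had the 0 and an upper bound if AS had it. It leaves out the counting error of the count that was not 0. Intervals and floors cover counting error only. Groups of under 20 cells were not compared, and shares of cells were taken after thinning to 1000 UMIs. Samples were grouped by their labels, and no test between groups was possible with 1 library each. The steps were tested on simulated data.

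The 7 genes, the gates and the gene lists were chosen with earlier results of these data known. Named were the 7 genes, genes of 3 lists at least 2-fold apart with at least 100 CPM, at most 5 per gate and comparison, and for each member the 3 genes nearest by Pearson correlation of log2(CPM + 10). Some genes so named are not reported here. Motifs were searched in RefSeq promoter windows, which 4 of the 7 genes had. The 11 planned and 5 added alternatives cover the number of markers, cells in 2 gates, doublets, limits on cells, scaling, fold, UMI minimum and removal of cells with foreign markers. Python 3.11.15 with numpy 2.4.6, scipy 1.17.1, pandas 2.3.3 and matplotlib 3.10.9 was used, and edgeR 4.0.16 for trimmed mean of M values (TMM) factors.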

Additional observations from a re-analysis of the deposited data

How the results depend on the processing

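The counts of pairs higher in AS were 15 of 15 against the library labelled Healthy, 13 of 15 against MTZ-treated and 10 of 19 against MTZ-preventive in the endothelial, fibroblast and smooth muscle gates, 1 of 7 in the adipocyte-marker gate and 3 of 5 in the Prg4-positive gate. Over all alternatives 60 such counts stayed within 1.5 times these and 8 did not. Against MTZ-preventive the count was 4 of 19 at 4-fold, 5 of 14 with at least 100 UMIs, 5 of 14 with at least 6 markers and 6 of 13 in cells without neutrophil, adipocyte or Prg4 UMIs. Against the library labelled Healthy it was 7 of 8 with at least 6 markers and 8 of 9 without those UMIs, and against MTZ-treated it was 6 of 11 with at least 6 markers. In these settings other than the 4-fold one fewer pairs had enough UMIs. With a mean over cells, 2 of 7 genes were higher in the adipocyte-marker gate. The share of all pairs or genes is not given at 4-fold, with at least 100 UMIs or with a mean over cells. Nothing is therefore read from the counts in those settings. Of the single ratios, 606 stayed within the counting interval of their main value, 201 left it, and 3 that were past 2-fold and higher in AS came out on the other side. These were Hp in the Prg4-positive gate against MTZ-preventive, at a log2 ratio of -0.76 with each cell in the gate of its most markers, Hp in fibroblasts against MTZ-treated, at -0.57 with at least 6 markers, and Serpina3m in smooth muscle against MTZ-preventive, at -0.13 without foreign UMIs. The cause was not tested. The 5 alternatives added after seeing the data were the 6 markers, the removal of foreign UMIs, the Prg4 cells with fibroblast markers, the endothelial cells without lymphatic markers and the removal of top cells. TMM factors left all 5 counts of higher pairs as they were, but 1 gene was then lower in each of the adipocyte-marker and Prg4-positive gates. The Prg4-positive comparison could not be made with a minimum of 1 or 5 Prg4 UMIs or without foreign UMIs, nor the adipocyte-marker comparison with 6 markers, and under no setting could adipocyte-marker cells of AS be compared with those of the library labelled Healthy or MTZ-treated, since under 20 cells remained. Each group is 1 library, so no replicate could be left out. No paired analysis was possible because each group has a single library. The AS library, with the fewest UMIs, limits the depth of every comparison.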
